A study of Rattus norvegicus with 15 samples.

Results

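The genes described here encode ATP-binding cassette (ABC) proteins, and they were taken as every non-control probe of the array whose gene name was Abc followed by a letter from a to g and a number. This gave 59 probes for 47 genes out of 35536 genes on the array, with the brightest probe taken for each gene. Transcript levels were measured on whole-genome rat arrays in cell suspensions of digestive mucosa of 5 segments (stomach, duodenum, jejunum, ileum, colon), each with 3 of the 15 samples. The labels give Sprague Dawley males without treatment for 14 samples, and neither strain nor sex for ileum 3; ages were not given. Mucosal cells were released from inverted segments by a brief pronase digestion and collected by elutriation, per the series text. The 3 samples of a segment are independent isolations, which may or may not be separate animals as far as the labels go, and the p-values speak for the spread between these isolations alone. The suspensions hold several cell types, and fewer cells of a type cannot be told apart from less RNA per cell.

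ABC proteins bind and hydrolyse ATP, and most of them use that energy to move a substrate across a membrane. In the gut epithelium, members of the b, c and g subfamilies are known for returning drugs, bile salts, plant sterols and conjugated metabolites to the lumen or passing them to the blood. Other members work in peroxisomes, mitochondria, lysosomes or as regulatory subunits of potassium channels, and those of the e and f subfamilies act on ribosomes and are not transporters.

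The letters printed here are a probe of Abcg2, a probe of Abcg8 and the start region of a gene pair. Shown first is the 60-base probe that carried the largest difference of any member, that of Abcg2; its letters lie over 1577 bases of chromosome 4 (rn3, chr4:87802630-87804206, plus strand), so it reads spliced RNA.
Abcg2 probe: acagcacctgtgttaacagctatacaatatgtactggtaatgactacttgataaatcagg
The next is the dimmer of 2 Abcg8 probes, shown because its segment pattern differed from that of the brighter probe; it lies over 224 bases of chromosome 6 (rn3, chr6:8077904-8078127, plus strand) and also crosses an intron.
Abcg8 dimmer probe: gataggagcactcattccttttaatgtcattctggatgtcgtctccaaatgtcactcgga
The last is the interval between the start sites of Abcg5 and Abcg8, a pair of genes that lie head to head and encode the partners of a sterol pump. It is 205 bases long in RefSeq's GRCr8 table (chr6:15717731-15717935) and is written on the strand of Abcg5, with capitals on AGATAA, letters that GATA factors are known to bind.
Abcg5-Abcg8 interval: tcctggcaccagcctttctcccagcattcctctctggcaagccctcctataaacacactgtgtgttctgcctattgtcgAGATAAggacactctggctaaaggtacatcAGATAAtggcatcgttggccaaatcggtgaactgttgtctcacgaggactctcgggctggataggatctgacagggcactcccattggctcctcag
AGATAA occurred 2 times in the interval, starting 126 and 96 bases before the Abcg5 start. On either strand, it was found in 3877 of 33469 RefSeq promoters (11.6%, 250 bases before to 50 after each start) and in 4 of the 36 members with an entry there, Abca12, Abca4, Abcg5 and Abcg8. The matches of Abcg5 and Abcg8 are the same 2 sites of their shared interval, counted once for each gene. Other motifs were looked for in the same windows on both strands. TTTATG, which CDX factors can bind, was found in 12.7% of all promoters and in Abca1 alone of the members. CAAAGTCCA, which HNF4 can bind, was in 0.391% of all promoters and in Abca6, Abcb4 and Abcd3. GCGTG, the core letters of dioxin receptor sites, was in 29.7% of all promoters and in 19 of the 36 members, and GGGCGG, the GC box, in 33.1% and in 22. These matches describe letters and do not show binding. Probes of different members shared at most 11 bases in a row.

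Of the 47 genes, 45 were tested, each being well above background in all samples of 1 segment or more. Abca5 and Abca9 were not tested, being well above background in 3 and 2 samples. Across the 15 samples 23 members were well above background everywhere. Between 95.4% and 97.1% of all probes were well above background in the stomach samples, and 44.4% (ileum 1) to 92.5% (duodenum 3) in the others, with jejunum 1 at 52.4%. The lowest level of any probe flagged well above background ran from -5.99 in stomach 2 to -1.78 in ileum 1. It is no cutoff, since a probe could lie above it and not be flagged. The flag itself was set differently. The scanner files give its multiplier as 2.6 in the stomach, 13 in the duodenum, jejunum and ileum, and none in the colon. Counts of samples well above background therefore do not mean the same in each segment. Of the 45 tested members, 8 passed the filter through the stomach samples alone: Abca6, Abca8a, Abca13, Abca15, Abca17, Abcc8, Abcc9 and Abcc12. Median processed intensities ran from 92.4 (colon 3) to 1048 (ileum 3). Duodenal and jejunal samples shared arrays in pairs of opposite dye, colon 1 and colon 2 were the channels of a single hybridisation, and colon 3 was scanned separately from a slide that carried an identical barcode. The headers do not settle whether that was a separate hybridisation, which bears on the n of 3 for the colon. Stomach, ileum and colon samples were scanned on days that held no other segment, with an older version of the scanner software for the stomach and a newer one for the colon, and for these the segment and the scan cannot be told apart.

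Levels below are log2 processed intensities minus the 75th percentile of the sample, and a level is compared only between samples of the same probe. Differences are log2 values with the standard error (SE) of the limma fit, and adjusted p is two-sided with Benjamini-Hochberg adjustment over all genes tested, called below 0.05. The small bowel is the mean of duodenum, jejunum and ileum (9 samples).

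Against the small bowel, the drug pump Abcg2 was low in the stomach, while the sterol pump subunit Abcg5 was low and the exporter Abcc5 high in both the stomach and the colon. An F test over the 5 segments called 23 of the 45 tested members (51.1%), and 42.3% of all genes. In the stomach 7 members were higher and 11 lower than in the small bowel, against 15.7% and 11.7% of all genes, which for the members is 15.6% and 24.4%. With the flags of the stomach samples left out of the filter, 5 were higher and 11 lower, since Abca13 and Abcc9 were then not tested. The higher members were Abca13, Abca2, Abca3, Abcc1, Abcc5, Abcc9 and Abcg1, and the lower ones included Abcb1a, Abcb1b, Abcb8, Abcb9, Abcc3, Abcc6, Abcf3, Abcg2, Abcg3l1 and Abcg5. Of the 9 tested b members 5 were lower and 0 higher, and of the 10 c members 3 were higher and 2 lower. The median difference was 0.19 over the members and 0.29 over all genes. In the colon 5 members were higher than in the small bowel (Abca1, Abca2, Abcc4, Abcc5 and Abcd3; 12.6% of all genes were) and 6 were lower (Abcb8, Abcb9, Abcd2, Abcd4, Abcf3 and Abcg5; 13.3% of all genes, and 25.9% in either direction). The medians were -0.10 and 0.00.

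Along the small bowel few members were called. In the ileum Abcb1b alone was higher than in the jejunum (1.46% of all genes were) and 3 members, Abcc2, Abcc6 and Abcd3, were lower (2.78% of all genes, and 4.23% in either direction), with medians of 0.02 over the members and 0.10 over all genes. Against the ileum alone, the colon had 3 higher members, Abca2, Abcc5 and Abcd3 (7.76% of all genes), and 4 lower, Abcd2, Abcf3, Abcg1 and Abcg5 (7.79% of all genes), with medians of -0.21 and -0.07. Limma called 0 members between duodenum and jejunum in either direction (0.253% of all genes were higher and 0.282% lower). Members with an unadjusted p under 0.05 were Abcg5, Abcg2, Abcb1a, Abcb1b and Abcg1, all lower in the duodenum (-1.56 to -0.69). Abce1, Abcc5 and Abcf1 also passed that limit, all higher (0.93 to 0.49). The adjusted p of these members ran from 0.0769 to 0.5. How many of all genes passed the unadjusted limit was not counted, so this list says nothing about the members as a set. The comparisons with the small bowel share its samples, and those of the ileum share the ileal samples. In all, 21 members were called in no contrast, among them Abca4, Abca6, Abca7, Abca8a, Abca8b, Abca12, Abca15, Abca17, Abcb4, Abcb6, Abcb10, Abcb11, Abcc8, Abcc10, Abcc12, Abce1, Abcf1, Abcf2, Abcg4 and Abcg8.

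**Figure D1:**
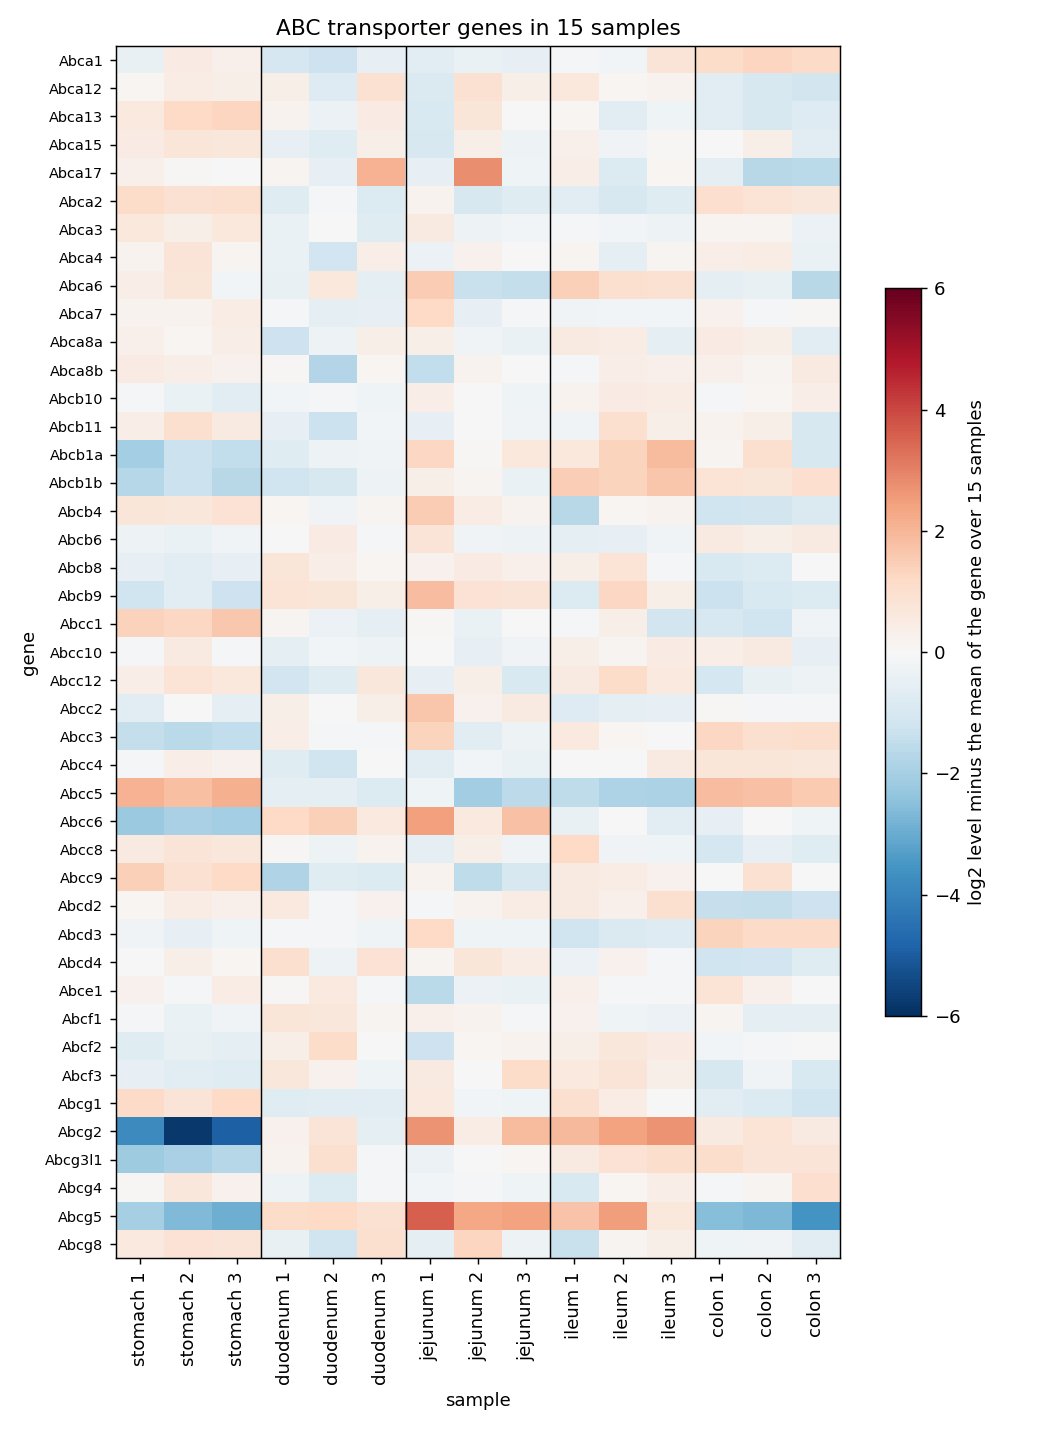
Heat map of 43 tested ABC genes (rows) in 15 samples (columns), coloured by the log2 level minus the mean of that gene over all samples. The darkest blue cells are those of Abcg2 in the stomach, where its levels were -3.87, -5.88 and -4.95, and Abcg5 is blue in both the stomach and the colon.

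**Figure D2:**
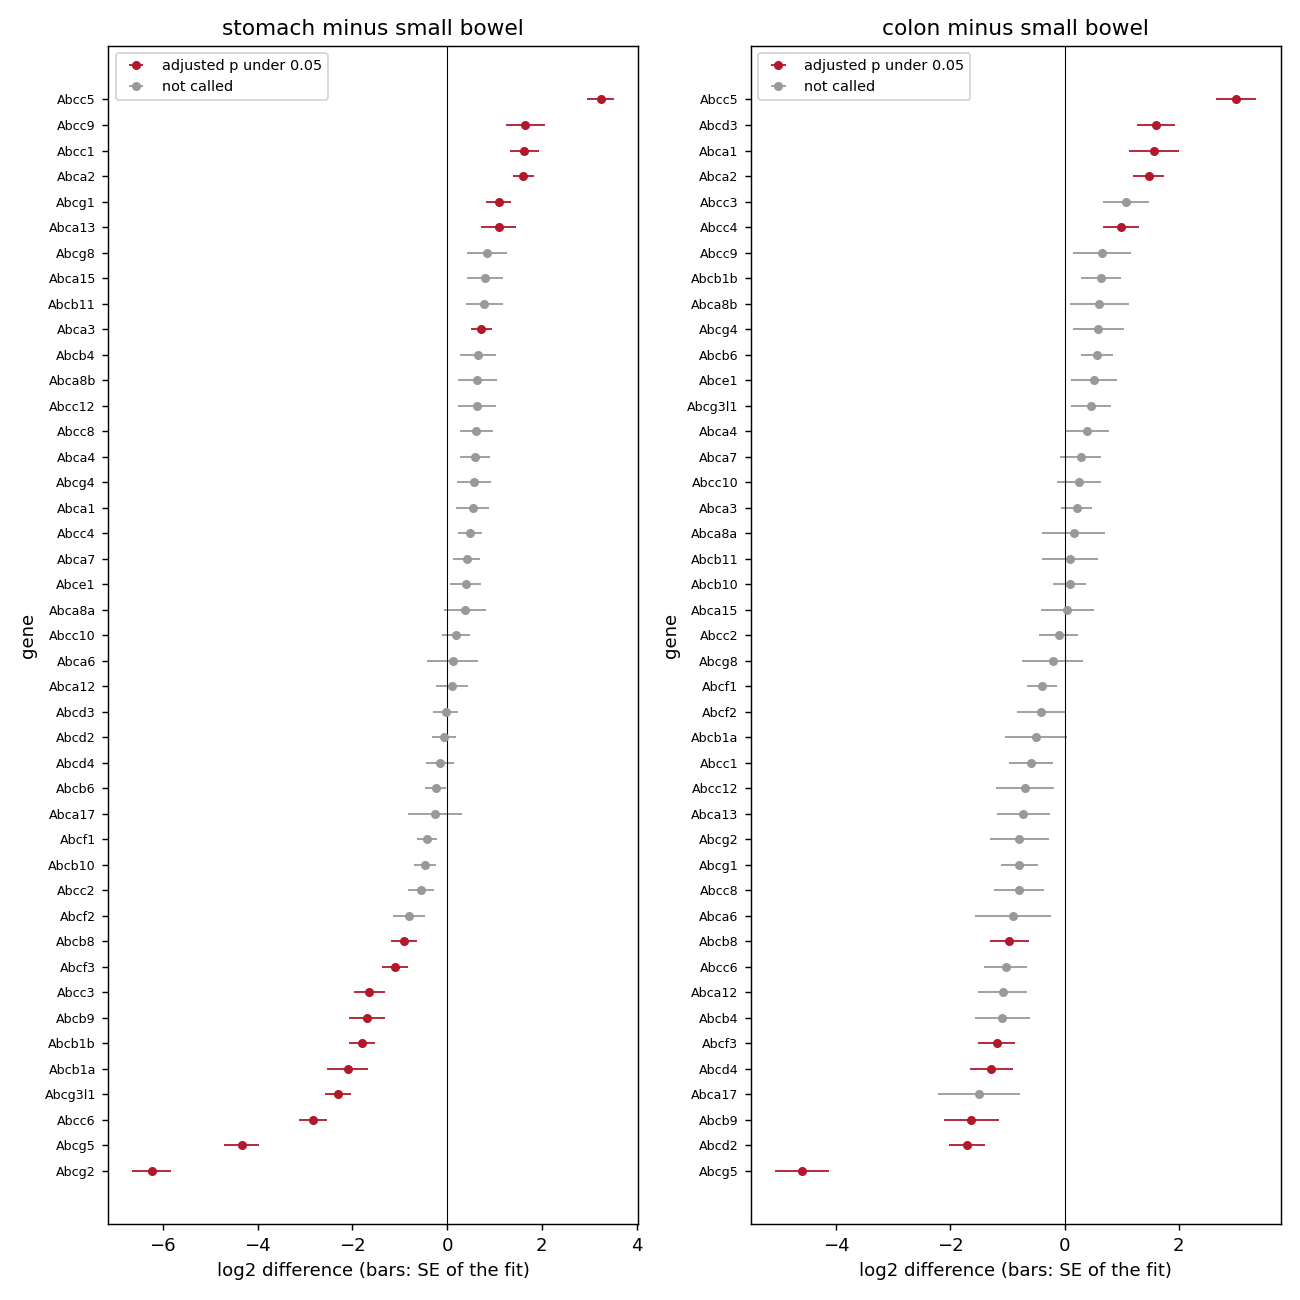
Log2 differences from the small bowel for 43 tested members in the stomach (left) and the colon (right), ordered by size, with bars for the SE of the fit and red for an adjusted p under 0.05. Abcc5 is the highest member in both panels (3.24 and 3.01), Abcg2 the lowest in the stomach (-6.23) and Abcg5 the lowest in the colon (-4.60).

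Abcg2, the breast cancer resistance protein, exports drugs, urate and porphyrins across the luminal membrane. Its levels were -3.87, -5.88 and -4.95 in the stomach, with 2 of the 3 samples well above background. They were 0.19, 0.72 and -0.59 in duodenum, 2.64, 0.40 and 1.81 in jejunum, 1.86, 2.34 and 2.61 in ileum and 0.46, 0.74 and 0.49 in colon. Every stomach sample lay below every other sample, and the colonic levels fell among those of the small bowel. The stomach was 75.2-fold lower than the small bowel (-6.23 ± 0.41, adjusted p = 5.51e-09), the largest difference of any member. The colon difference of -0.79 ± 0.52 was not called (adjusted p = 0.278). With normexp background correction, which raises dim signals, the stomach difference of Abcg2 was -3.84. On the 3 arrays that held both segments, the duodenum minus jejunum difference was -1.62, -1.92 and -0.99, and the fit gave -1.54 ± 0.41 (adjusted p = 0.127).

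The rat has a pair of P-glycoprotein genes, Abcb1a and Abcb1b, whose products pump many lipophilic drugs out of cells. Abcb1a levels were -3.82, -3.06 and -3.25 in the stomach, -2.51, -2.09 and -1.98 in duodenum, -0.54, -1.71 and -1.16 in jejunum, -1.13, -0.44 and 0.11 in ileum and -1.63, -0.82 and -2.76 in colon. The stomach samples were the lowest and did not overlap those of any other segment, while the colonic samples spread from -2.76, below every sample of the small bowel, to -0.82, within its range. Abcb1a was 4.29-fold lower in the stomach (-2.10 ± 0.43, adjusted p = 0.0013; -1.36 with normexp). Abcb1b levels were -4.09, -3.67 and -4.05 in the stomach, -3.56, -3.33 and -2.67 in duodenum, -2.03, -2.21 and -2.79 in jejunum, -0.90, -1.04 and -0.69 in ileum and -1.57, -1.64 and -1.35 in colon. The ileal samples were the highest and overlapped no other segment, and the stomach samples were the lowest. Abcb1b was 3.49-fold lower in the stomach than the small bowel (-1.80 ± 0.28, adjusted p = 0.000109) and 2.75-fold higher in the ileum than in the jejunum (1.46 ± 0.34, adjusted p = 0.025). That last call was lost with normexp (0.69), with the scan day as block (1.43), with only both segments in the fit (1.25) and without jejunum 3 (1.29), ileum 1 (1.47) or ileum 3 (1.37), with adjusted p between 0.0563 and 0.179. Colon differences of -0.50 ± 0.54 for Abcb1a and 0.63 ± 0.35 for Abcb1b were not called.

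**Figure D3:**
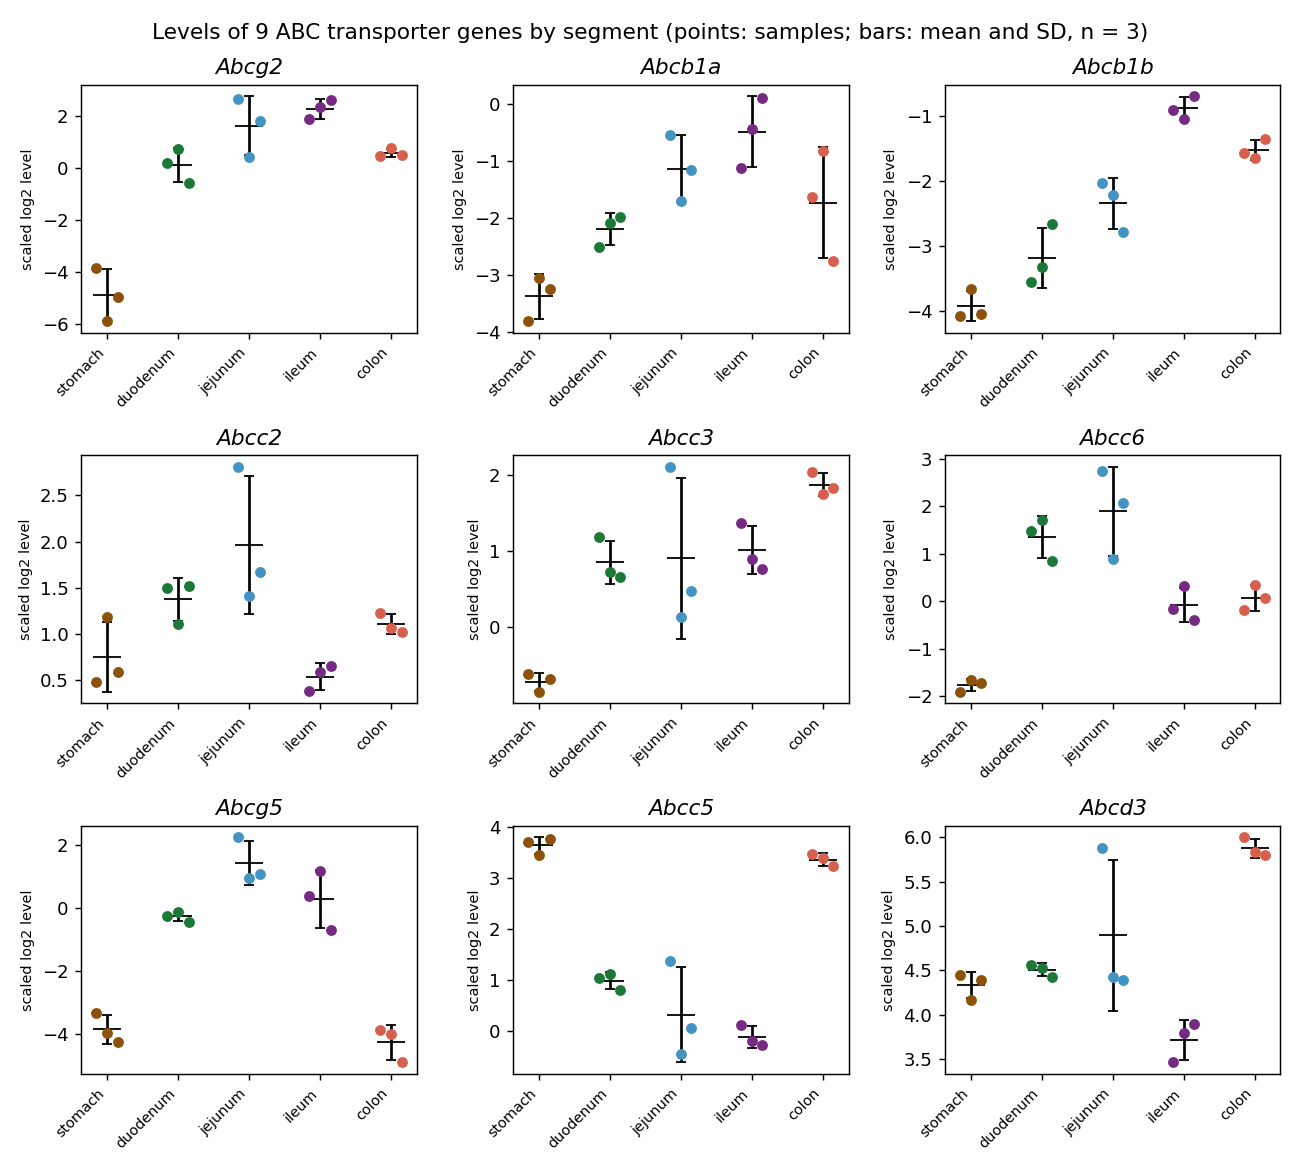
Scaled log2 levels of 9 members in the 3 samples of each segment (points), with the mean and SD as bars; each panel has its own axis. Abcg2, Abcc3 and Abcc6 are lowest in the stomach, Abcc5 is high in both the stomach and the colon, Abcg5 is low in both, and jejunum 1 is the highest jejunal sample in all 9 panels.

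Among the exporters of conjugates, Abcc2 sits on the luminal membrane and Abcc3 on the blood-facing side. Abcc2 levels were 0.48, 1.18 and 0.59 in the stomach, 1.5, 1.11 and 1.52 in duodenum, 2.81, 1.41 and 1.67 in jejunum, 0.38, 0.59 and 0.65 in ileum and 1.23, 1.07 and 1.02 in colon. The ileum lay below the jejunum without overlap, by 2.85-fold (-1.51 ± 0.33, adjusted p = 0.0189). This Abcc2 call was lost without jejunum 1 (-0.98, adjusted p = 0.0821), without ileum 1 (-1.43, adjusted p = 0.0653), without ileum 3 (-1.56, adjusted p = 0.054) and with only both segments in the fit (-1.57, adjusted p = 0.0964). Abcc3 levels were -0.62, -0.85 and -0.68 in the stomach, 1.18, 0.73 and 0.66 in duodenum, 2.11, 0.13 and 0.48 in jejunum, 1.37, 0.90 and 0.77 in ileum and 2.04, 1.75 and 1.83 in colon. The stomach was below every other sample, by 3.12-fold against the small bowel (-1.64 ± 0.32, adjusted p = 0.000776), and a second Abcc3 probe also called it lower (3.59-fold). The colon held the highest segment mean of Abcc3, at 1.87 ± 0.15 (SD, n = 3), but its difference of 1.07 ± 0.40 missed the threshold (adjusted p = 0.0566).

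Abcc6, a transporter whose loss in people causes the mineralising disorder pseudoxanthoma elasticum, was high in the duodenum and jejunum and lower in the ileum. Its levels were -1.91, -1.66 and -1.73 in the stomach, 1.48, 1.71 and 0.86 in duodenum, 2.74, 0.89 and 2.07 in jejunum, -0.17, 0.32 and -0.39 in ileum and -0.19, 0.34 and 0.06 in colon. Ileal and colonic samples overlapped, and both lay below all duodenal and jejunal samples. Abcc6 was 7.09-fold lower in the stomach than the small bowel (-2.83 ± 0.30, adjusted p = 1.67e-06; -2.14 with normexp). In the ileum it was 3.81-fold lower than in the jejunum (-1.93 ± 0.37, adjusted p = 0.00744), a call kept when any single sample was left out and lost with only both segments in the fit (-1.89, adjusted p = 0.0988). The colon difference was -1.03 ± 0.38 (adjusted p = 0.0526).

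Abcc5, which exports cyclic nucleotides among other anions, was high in both the stomach and the colon. Levels of Abcc5 were 3.71, 3.46 and 3.76 in the stomach, 1.04, 1.12 and 0.80 in duodenum, 1.37, -0.45 and 0.05 in jejunum, 0.12, -0.20 and -0.27 in ileum and 3.47, 3.39 and 3.23 in colon. All stomach and colon samples lay above all samples of the small bowel. The difference was 9.48-fold for the stomach (3.24 ± 0.28, adjusted p = 1.5e-07), 8.07-fold for the colon (3.01 ± 0.35, adjusted p = 1.26e-05) and 11.9-fold for the colon against the ileum (3.58 ± 0.42). These 3 calls of Abcc5 were kept under every alternative.

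Abcc1, a broad exporter of glutathione conjugates and leukotrienes, was higher in the stomach and not called in the colon (-0.59 ± 0.39). Its levels were 1.39, 1.22 and 1.61 in the stomach, 0.16, -0.38 and -0.54 in duodenum, 0.06, -0.39 and 0.01 in jejunum, -0.11, 0.34 and -1.1 in ileum and -0.99, -1.19 and -0.21 in colon. No other sample reached the stomach range, and the difference was 3.08-fold (1.63 ± 0.31, adjusted p = 0.000684). Abcc4 exports cyclic nucleotides, prostaglandins and bile salts. Levels of Abcc4 were -1.47, -1.0 and -1.15 in the stomach, -2.10, -2.59 and -1.43 in duodenum, -2.08, -1.56 and -1.78 in jejunum, -1.38, -1.34 and -0.87 in ileum and -0.68, -0.66 and -0.70 in colon. The colonic samples were above all others, by 1.98-fold against the small bowel (0.99 ± 0.32, adjusted p = 0.0333). That Abcc4 call was lost in 8 of the 15 fits without a single sample, those without stomach 2 or 3, duodenum 2, jejunum 2, ileum 2 or colon 1, 2 or 3 (0.87 to 1.0, adjusted p = 0.0502 to 0.101), and with colon 1 and 2 averaged (0.97, adjusted p = 0.073) or only both groups in the fit (0.99, adjusted p = 0.0791). A second, dimmer Abcc4 probe was 4.24-fold higher in the colon (adjusted p = 0.00892) and also 3.67-fold higher in the stomach (adjusted p = 0.00299), where the brighter probe gave 0.48 ± 0.26 (adjusted p = 0.19). Abcc10 and Abcc12, less studied relatives, had stomach differences of 0.19 and 0.63 and colon differences of 0.25 and -0.69.

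Abcg5 is a subunit of the pump that returns plant sterols and cholesterol to the gut lumen, and its partner is Abcg8. Levels of Abcg5 were -3.34, -3.98 and -4.25 in the stomach, -0.26, -0.13 and -0.44 in duodenum, 2.24, 0.96 and 1.06 in jejunum, 0.36, 1.17 and -0.69 in ileum and -3.88, -4.02 and -4.91 in colon. Stomach and colon samples lay far below all samples of the small bowel, and only 1 colon sample was well above background. Abcg5 was 20.1-fold lower in the stomach (-4.33 ± 0.37, adjusted p = 1.37e-07), 24.3-fold lower in the colon (-4.60 ± 0.47, adjusted p = 2.83e-06) and 19.3-fold lower in the colon than in the ileum (-4.27 ± 0.55, adjusted p = 7.01e-05). The normexp values were -3.1, -2.10 and -1.88, all still called. Between duodenum and jejunum Abcg5 gave -1.32, -2.37 and -1.40 on the 3 shared arrays, and the fit -1.56 ± 0.37 (adjusted p = 0.0769).

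The 2 probes of Abcg8 did not show the same pattern. By the brighter, which lies within 60 bases of genome, levels were -1.11, -0.82 and -0.92 in the stomach, -2.11, -2.86 and -0.74 in duodenum, -2.26, -0.37 and -1.99 in jejunum, -3.0, -1.51 and -1.33 in ileum and -1.93, -1.91 and -2.33 in colon. Small bowel samples spread over more than the whole stomach range. The stomach difference of this Abcg8 probe was 0.84 ± 0.43 (adjusted p = 0.165) and the colon difference -0.21 ± 0.54. By the dimmer, intron-crossing probe printed above, Abcg8 levels were -2.12, -2.12 and -2.46 in the stomach, -1.84, -1.70 and -1.41 in duodenum, -1.65, -1.21 and -1.51 in jejunum, -1.43, -1.17 and -2.08 in ileum and -1.99, -2.07 and -2.04 in colon. On that probe every stomach sample lay below every small bowel sample, 1.6-fold lower in the fit (adjusted p = 0.0538), and the colon was 1.38-fold lower (adjusted p = 0.295). Neither probe was called, so the fall of Abcg5 in the stomach and colon had no called counterpart in Abcg8.

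**Figure D4:**
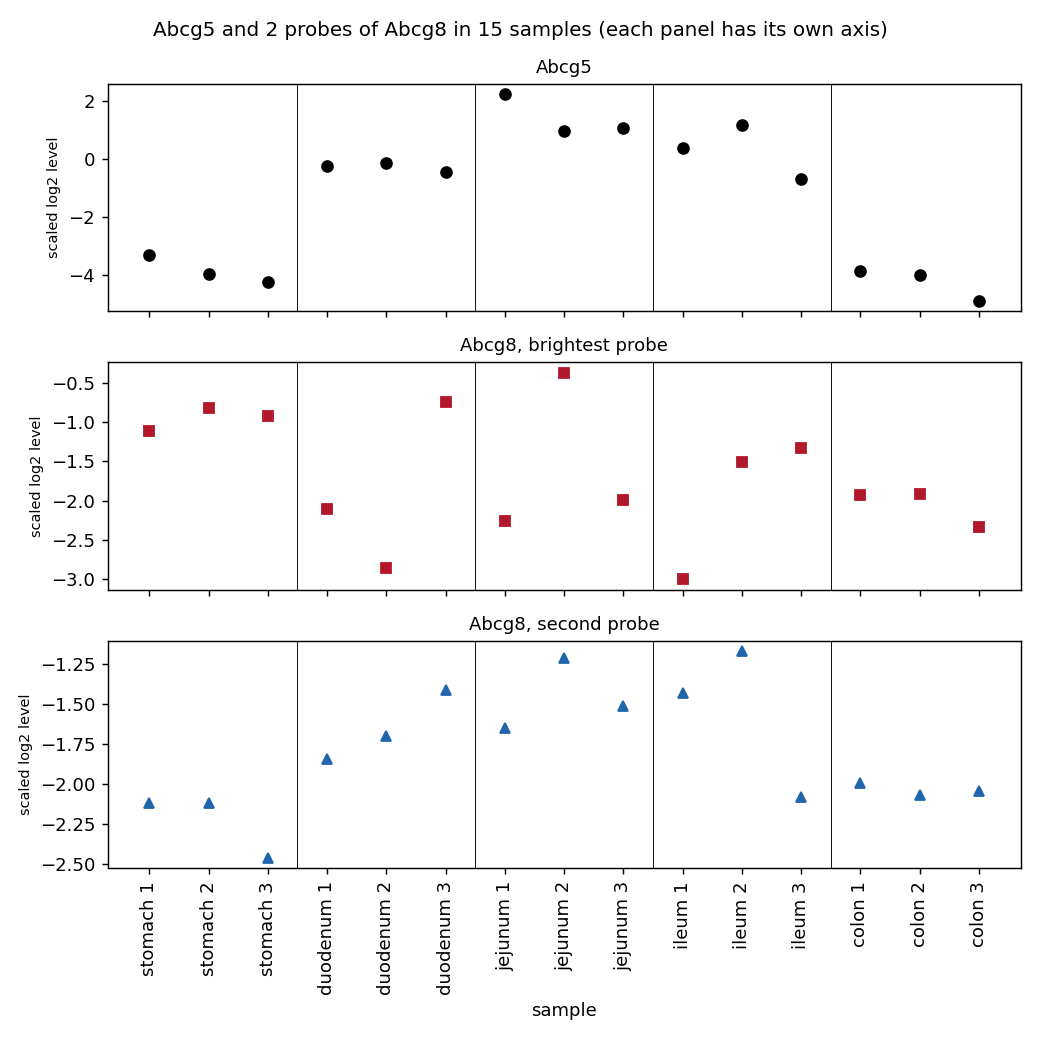
Scaled log2 levels in 15 samples for Abcg5 (top), the brighter Abcg8 probe (middle) and the dimmer Abcg8 probe (bottom), each panel with its own axis. Abcg5 is low in the stomach (-4.25 to -3.34) and the colon (-4.91 to -3.88), while the stomach samples are high on the brighter Abcg8 probe and low on the dimmer one.

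Abca1 loads cholesterol onto apolipoprotein A-I at the blood-facing side of the cell, and Abcg1 passes sterols to mature lipoproteins. Abca1 levels were -4.68, -3.73 and -3.90 in the stomach, -5.24, -5.47 and -4.72 in duodenum, -4.88, -4.62 and -4.72 in jejunum, -4.29, -4.40 and -3.43 in ileum and -3.12, -2.92 and -3.08 in colon. The probe was dim and passed the background limit in 3 of 9 small bowel samples, and the colonic samples were above all others. Abca1 was 2.94-fold higher in the colon than in the small bowel (1.56 ± 0.44, adjusted p = 0.0149), 0.91 with normexp (adjusted p = 0.041) and not called without colon 1 (1.54, adjusted p = 0.0509). Abcg1 levels were 0.57, 0.17 and 0.58 in the stomach, -1.33, -1.24 and -1.24 in duodenum, -0.02, -0.74 and -0.85 in jejunum, 0.36, -0.16 and -0.61 in ileum and -1.29, -1.40 and -1.78 in colon. Only ileum 1 reached the stomach range, and the stomach was 2.13-fold above the small bowel (1.09 ± 0.26, adjusted p = 0.00371). The stomach call of Abcg1 was lost without stomach 3 (0.95, adjusted p = 0.0514) and with the scan day as block (1.06, adjusted p = 0.051). Against the ileum, Abcg1 was 2.38-fold lower in the colon (-1.25 ± 0.38, adjusted p = 0.032), a call lost without stomach 1 or 3, duodenum 1, ileum 1 or 2, or colon 1 or 3 (-1.36 to -1.0, adjusted p = 0.0532 to 0.0842), with quantile normalization (-1.09, adjusted p = 0.0718), with colon 1 and 2 averaged (-1.32, adjusted p = 0.0533) and with only both segments in the fit (-1.15, adjusted p = 0.176). Abcg4, a close relative of Abcg1, was not called (0.57 in the stomach and 0.59 in the colon).

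Abcb11, the bile salt export pump, and Abcb4, which moves phosphatidylcholine into bile, are known chiefly from the liver. Abcb11 was dim, with levels of -3.13, -2.56 and -2.99 in the stomach, -3.98, -4.80 and -3.67 in duodenum, -3.98, -3.47 and -3.71 in jejunum, -3.71, -2.54 and -3.18 in ileum and -3.31, -3.16 and -4.47 in colon. It was well above background in 11 samples, segments overlapped, and neither of its 2 probes was called in any contrast. Abcb4 levels were -1.08, -1.13 and -0.93 in the stomach, -1.67, -2.02 and -1.65 in duodenum, -0.27, -1.34 and -1.61 in jejunum, -3.46, -1.70 and -1.58 in ileum and -2.98, -2.90 and -2.69 in colon. The colonic samples were low, and only ileum 1 lay below them. Abcb4 passed the F test and no single contrast, with 0.65 ± 0.38 in the stomach and -1.09 ± 0.48 in the colon (adjusted p = 0.105).

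The d subfamily carries very long-chain and branched fatty acids into peroxisomes, with Abcd4 known instead for lysosomal cobalamin export. Abcd3 levels were 4.45, 4.17 and 4.39 in the stomach, 4.56, 4.53 and 4.42 in duodenum, 5.88, 4.42 and 4.39 in jejunum, 3.46, 3.79 and 3.89 in ileum and 6.0, 5.83 and 5.80 in colon. The ileum was the lowest segment and the colon the highest, matched only by jejunum 1. Abcd3 was 3.03-fold higher in the colon than in the small bowel (1.60 ± 0.33, adjusted p = 0.00198; 0.99 with quantile normalization) and 5.08-fold higher than in the ileum (2.35 ± 0.39, adjusted p = 0.000616; 1.23 with normexp and 1.34 with quantile normalization). Its ileum minus jejunum difference of -1.27 ± 0.32 (adjusted p = 0.0347) was -0.74 without jejunum 1 (adjusted p = 0.127) and -0.36 with normexp (adjusted p = 0.621). That call of Abcd3 was also lost without stomach 1, duodenum 1, ileum 1, 2 or 3, or colon 3 (-1.36 to -1.14, adjusted p = 0.0504 to 0.105), with quantile normalization (-0.66, adjusted p = 0.174), with the scan day as block (-1.35, adjusted p = 0.0578), without an intensity trend (adjusted p = 0.0739) and with only both segments in the fit (-1.43, adjusted p = 0.16).

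Abcd2, a peroxisomal member, was lowest in the colon, at -3.12, -3.19 and -2.96 against -1.81 to -0.78 in the small bowel and -1.64 to -1.30 in the stomach. It was 3.27-fold lower in the colon than in the small bowel (-1.71 ± 0.31, adjusted p = 7e-04; -0.69 with normexp) and 3.87-fold lower than in the ileum (-1.95 ± 0.36), where normexp gave -0.67 (adjusted p = 0.0885). Only 1 colon sample was well above background for Abcd2. Abcd4, at -3.50 to -3.04 in the colon and -2.66 to -1.35 in the small bowel, was 2.42-fold lower there (-1.28 ± 0.38, adjusted p = 0.0209), which normexp reduced to -0.23 (adjusted p = 0.441), and the call was lost without colon 1 (-1.05, adjusted p = 0.112), with colon 1 and 2 averaged (-1.16, adjusted p = 0.062) and with only both groups in the fit (-1.27, adjusted p = 0.0565). Abcd2 and Abcd3 thus stood on opposite sides of the small bowel in the colon, both without overlap with the ileum.

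Abcb8 and Abcb10 sit in the inner membrane of mitochondria. Abcb8 was 1.88-fold lower in the stomach (-0.91 ± 0.27, adjusted p = 0.0183) and 1.96-fold lower in the colon (-0.97 ± 0.34, adjusted p = 0.0455). Its stomach call was lost without stomach 1, 2 or 3 (-0.94 to -0.87, adjusted p = 0.0638 to 0.0895) and with the scan day as block (-0.91, adjusted p = 0.0988), and its colon call in 8 of the 15 fits without a single sample (stomach 1, 2 or 3, duodenum 2, jejunum 2, ileum 2, colon 1 or 2), with -0.97 to -0.68 and adjusted p = 0.0664 to 0.229. The colon call of Abcb8 was also lost under 6 other alternatives, among them normexp (-0.59, adjusted p = 0.0784) and colon 1 and 2 averaged (-0.80, adjusted p = 0.134). Abcb10 (-0.46 in the stomach) and Abcb6, a porphyrin carrier (-0.24 in the stomach and 0.57 in the colon), were not called.

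Abcb9 carries peptides into lysosomes, and was low in both the stomach and the colon. Levels of its brighter probe ran from -3.64 to -3.03 in the stomach, -3.26 (ileum 1) to -0.58 in the small bowel and -3.71 to -3.26 in the colon. The differences were -1.69 ± 0.38 for the stomach (3.22-fold, adjusted p = 0.0031) and -1.63 ± 0.48 for the colon (3.1-fold, adjusted p = 0.0197). The colon call of Abcb9 was lost without colon 1 (-1.29, adjusted p = 0.117), with normexp (-0.31, adjusted p = 0.362) and with colon 1 and 2 averaged (-1.5, adjusted p = 0.0527). A dimmer probe of Abcb9 was lower in the colon (adjusted p = 0.00189), where none of its samples was well above background. With colon levels raised to the lowest flagged level of their sample, the difference was 2.51-fold, which is not a strict bound. This probe was not called in the stomach (1.46-fold, adjusted p = 0.241).

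Among the a subfamily, which moves lipids, Abca2 of the lysosome was the member that rose at both ends of the tract. Its levels were 2.68 to 2.89 in the stomach, 0.80 to 1.96 in the small bowel and 2.43 to 2.75 in the colon. Neither the stomach nor the colon overlapped the small bowel. Abca2 was 3.05-fold higher in the stomach (1.61 ± 0.22, adjusted p = 3.31e-05), 2.77-fold higher in the colon (1.47 ± 0.28, adjusted p = 0.00105) and 3.21-fold higher in the colon than in the ileum (1.68 ± 0.33, adjusted p = 0.00226). All 3 were called under every alternative. Abca3, the surfactant lipid carrier of lung cells, was 1.65-fold higher in the stomach by its brightest probe (0.72 ± 0.22, adjusted p = 0.0193) and 1.01-fold and 1.04-fold different by the other two. The Abca3 call was lost with the mean of its probes (0.22, adjusted p = 0.361), with the scan day as block (0.67, adjusted p = 0.148) and without stomach 1 (0.69, adjusted p = 0.0889) or stomach 3 (0.62, adjusted p = 0.138).

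Abca13 also passed the filter through the stomach alone and had no value with the stomach flags left out. It was 2.13-fold higher in the stomach (1.09 ± 0.37, adjusted p = 0.0373) at levels of -3.42 to -2.71, against -4.93 to -3.29 in the small bowel, where 4 of 9 samples were well above background. With normexp the Abca13 difference was 0.08 (adjusted p = 0.875), with quantile normalization 0.70 (adjusted p = 0.212), with the scan day as block 1.16 (adjusted p = 0.162), and the call was lost without stomach 2 or 3, duodenum 1 or 2, jejunum 3, or ileum 2 or 3 (0.92 to 1.1, adjusted p = 0.0503 to 0.206). Of the a members left, those named next passed no test. Abca4, the retinoid carrier of the eye, and Abca7 were near the 75th percentile of their samples (-1.02 to 0.93 and -0.25 to 1.51), and Abca12, a lipid carrier of the skin, ran from -2.56 to -0.55. Abca6, Abca8a, Abca8b, Abca15 and Abca17 were dim, with segment means between -6.27 and -3.43. Abca17 stood at -2.17 in duodenum 3 and -1.47 in jejunum 2, the channels of a single array, and at or below -3.84 in the other 13 samples.

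Abcc8 and Abcc9 are sulphonylurea receptors, the regulatory subunits of ATP-sensitive potassium channels. Abcc9, the form of muscle and vessels, lay between -3.07 and -2.56 in the stomach and between -5.78 and -3.44 in the small bowel, where it was well above background in 2 of 9 samples. It passed the filter through the stomach alone, where it was high, and so had no value with the stomach flags left out. In the fit Abcc9 was 3.14-fold higher in the stomach (1.65 ± 0.41, adjusted p = 0.00552), and the call was lost with normexp (0.39, adjusted p = 0.39), with quantile normalization (1.05, adjusted p = 0.0817), with the scan day as block (1.57, adjusted p = 0.0654) and without stomach 1 (1.46, adjusted p = 0.0514). The pore Kcnj8, with which Abcc9 pairs, was 8.66-fold higher in the stomach (3.11 ± 0.38, adjusted p = 8.04e-06), and Kcnj11, the usual partner of Abcc8, 1.84-fold higher (0.88 ± 0.31, adjusted p = 0.0427). These pores too passed the filter through the stomach samples alone, so they lend Abcc9 no support. Abcc8, the form of endocrine cells, was not called (0.62 in the stomach, -0.80 in the colon). Beside these, 6 of 7 fibroblast and matrix markers and 5 of 6 endothelial markers were also higher in the stomach. So were 2 of 6 smooth muscle and pericyte markers, against 15.7% of all genes. Of these lists, Col6a1, Pdgfra, Pecam1, Emcn, Tagln and Cnn1 also passed the filter through the stomach samples alone. The marker counts thus rest in part on the filter and lend Abcc9 no support. The mean level of the smooth muscle and pericyte list was -0.50 to -0.27 in the stomach and -1.86 to -1.15 in the small bowel; the part of these cells in the Abcc9 difference was not tested.

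Abcf3 and its relatives Abcf1, Abcf2 and Abce1 act in translation. Abcf3 was -1.02 to -0.79 in the stomach, -0.56 to 0.84 in the small bowel and -1.23 to -0.49 in the colon. It was lower in the stomach (-1.1 ± 0.27, adjusted p = 0.00502), in the colon (-1.19 ± 0.33, adjusted p = 0.0153) and in the colon against the ileum (-1.36 ± 0.39, adjusted p = 0.027). The stomach call of Abcf3 was lost without stomach 3 (-0.99, adjusted p = 0.0507) and with the scan day as block (adjusted p = 0.104). Its colon calls were lost without colon 1 (-1.04, adjusted p = 0.0785, and -1.17, adjusted p = 0.132) and without colon 3 (-1.06, adjusted p = 0.0538, and -1.26, adjusted p = 0.0582), and that against the ileum also without ileum 1 (-1.34, adjusted p = 0.0504) or ileum 2 (-1.25, adjusted p = 0.0774) and with only both segments in the fit (-1.53, adjusted p = 0.0648). Abcf1, with levels of 3.31 to 4.65 by its brightest probe, passed only the F test. A dimmer Abcf1 probe was 3.73-fold lower in the stomach (adjusted p = 7.44e-06), where the brightest gave -0.43 ± 0.21 and another 1.02-fold. Abcf2 (-0.81 in the stomach, adjusted p = 0.0894) and Abce1 (0.39) were not called.

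The probe named Abcg3 in the files matched Abcg3l1, a rodent gene of a family with several like copies, so its signal may come from more than a single gene. Its levels were -3.60, -3.40 and -3.16 in the stomach, -1.24, -0.49 and -1.56 in duodenum, -1.81, -1.48 and -1.35 in jejunum, -0.91, -0.58 and -0.41 in ileum and -0.40, -0.68 and -0.67 in colon. The stomach lay below all others, 4.91-fold below the small bowel (-2.30 ± 0.28, adjusted p = 6.87e-06; -1.63 with normexp).

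Genes that work with these transporters were taken from lists, whose counts are to be read beside the shares of all genes. In the stomach 15.7% of all genes were higher and 11.7% lower, and in the colon 12.6% and 13.3%. These shares were 1.46% and 2.78% in the ileum against the jejunum, and 0.253% and 0.282% in the duodenum against the jejunum. Of the 16 sterol and lipoprotein partners tested, 9 were lower and 0 higher in the stomach, and 7 were lower and 0 higher in the colon. Their median differences were -2.08 and -0.63. Mttp, which assembles chylomicrons, was lower in the stomach, where no sample was well above background. With stomach levels raised to the lowest flagged level of their sample, its difference was 892-fold, which is not a strict bound. Npc1l1, the luminal cholesterol importer that works against the Abcg5 and Abcg8 pump, lay between -4.69 and -4.37 in the stomach, 2.60 and 5.91 in the small bowel and -0.62 and -0.34 in the colon. It was 281-fold lower in the stomach (-8.13 ± 0.36), and no stomach or colon sample overlapped the small bowel. In the ileum 4 of the 16 were lower than in the jejunum, among them Apoa4 (-4.10 ± 0.68) and the lipoprotein receptor Scarb1 (-2.65 ± 0.46), and Cd36 alone differed between duodenum and jejunum (-1.31 ± 0.22, adjusted p = 0.00939).

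Of 7 bile acid partners tested, 3 were higher in the ileum than in the jejunum and 0 lower. They were the binding protein Fabp6 (6.95 ± 0.41), the basolateral exporter subunit Slc51b (2.62 ± 0.37) and the luminal importer Slc10a2 (1.38 ± 0.30). Abcb11 and Abcc3, members that also handle bile salts, were not called in that contrast. In the stomach 4 were lower and 1 higher, and in the colon 2 lower and 0 higher, with Slc51a falling by 3.30 on the log2 scale there. Of 27 drug and conjugate partners tested, 14 were lower and 3 higher in the stomach, led by the glutathione transferase Gsta2 (-8.89 ± 0.42) and the peptide importer Slc15a1 (-8.38 ± 0.45). Of this list, Arnt, Cyp3a23-3a1 and Slco2a1 passed the filter through the stomach samples alone. The count of higher genes in the stomach may thus rest in part on the filter. In the colon 6 of the 27 were lower and 3 higher, with Gsta2 (-5.54 ± 0.52) and Slc15a1 (-5.32 ± 0.57) again among the lower. Cyp1a1 was also lower there, by 13.9-fold with colon levels raised to the lowest flagged level of their sample, which is not a strict bound. In the ileum 4 were lower than in the jejunum and 0 higher, led by Gsta2 (-3.71 ± 0.51), as Abcc2 and Abcc6 were.

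Of the ABC genes with other names, the peptide transporter subunits Tap1 (-3.06 ± 0.27) and Tap2 (-2.39 ± 0.35) were lower in the stomach. Tap1 was also lower in the colon (-2.29 ± 0.34), where the chloride channel Cftr was higher (1.07 ± 0.35, adjusted p = 0.0324). Of 6 T cell and lymphocyte markers, 3 were lower in the stomach (11.7% of all genes) and 4 in the colon (13.3%). In either, 0 of these markers were higher. Their mean level was -2.28 to -1.87 in the stomach, -0.88 to 1.13 in the small bowel and -1.83 to -1.76 in the colon. The part of these cells in the Tap1 differences was not tested. Among 8 peroxisome partners tested, 3 were lower in the ileum than in the jejunum and 0 higher, among them Acaa1a (-1.37 ± 0.32) and Pex19 (-0.90 ± 0.21). In the colon 1 was lower than in the small bowel (13.3% of all genes) and 0 higher. Of 12 haem and iron-sulphur partners, 3 were higher in the colon (12.6% of all genes) and 0 lower. The higher ones were Urod (1.84 ± 0.24), the first enzyme of haem synthesis Alas1 (1.16 ± 0.30) and Glrx5 (0.99 ± 0.25). In the stomach 2 of the 12 were higher and 4 lower, against 15.7% and 11.7% of all genes. Of this list, Slc25a37 passed the filter through the stomach samples alone.

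Cell type markers moved with the same contrasts. Of 8 enterocyte markers, 7 were lower in the stomach (11.7% of all genes) and 7 in the colon (13.3%). Against the jejunum, 6 of these markers were lower in the ileum (2.78%). Their mean level was -2.29 to -1.94 in the stomach, 2.31 to 2.65 in the duodenum, 3.20 to 4.79 in the jejunum, 1.14 to 2.45 in the ileum and -1.53 to -1.48 in the colon. The enterocyte marker Si was well above background in 0 of 3 colon samples. Dissociation stress genes stood at -0.32 to -0.18 in the stomach, 2.89 to 4.64 in the small bowel and 5.08 to 5.31 in the colon. The part of cell mixture and of stress in the ABC differences was not tested. Jejunum 1 was the sample with the highest enterocyte level, 4.79, and without it and duodenum 2, which shares its array, 8 members were higher and 12 lower in the stomach, and 7 higher and 9 lower in the colon. Over all genes the same fit called 5713 higher and 4440 lower in the stomach, and 5682 and 6518 in the colon.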

How the data were processed

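Each sample is a channel of a 2-colour Agilent array. The deposited processed intensity is, per the file headers, background subtracted and dye normalized by Agilent Feature Extraction 8.5.1.1, 9.5.1.1, 9.5.3.1 or 10.1.1.1. The deposited value table held the same processed intensity on a linear scale. From it log2 values were computed, minus the 75th percentile of each sample. Spots that the scanner software marked non-uniform or as outliers of their population were dropped, and the probes tested were well above background in all samples of 1 segment or more. The brightest probe stood for a gene. limma 3.58.1 in R 4.3.3 fitted segment and dye with the slide as random block (correlation 0.357, 9 residual degrees of freedom) to all 15 samples and 33654 genes, with Benjamini-Hochberg adjustment over all of them. The 3 colon samples share a barcode and so form a single block that holds no other segment. The SE of the colon comparisons rests on this choice. The dye term called 0 genes, with 632 at an unadjusted p under 0.05. The fit was tested on simulated data.

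Members and gene lists were chosen with earlier results of these data known. The rule names every member, though 2 of the members tested and a partner gene are counted but not reported here by name. Sample values are given for members with a called log2 difference of at least 2 and for the known gut exporters, and of a partner list the 3 genes with the largest called differences in a contrast could be named. Levels of Abcb9, Abca2, Abca12, Abca13, Abca17, Abcd4, Abcf1 and Abcf3 by range were added after they were seen. The levels or segment means given for Abca4, Abca6, Abca7, Abca8a, Abca8b, Abca15, Abcc9 and Abcd2 also fall outside the rule. Arnt, Cyp3a23-3a1, Slco2a1 and Slc25a37 were named only for how they passed the filter. The probe named Abcb1 was matched to Abcb1b by its accession, and Abcd4 was named in the stomach files alone. The number of arrays and, for dim members, the signal limit the precision.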

Additional observations from a re-analysis of the deposited data

How the results depend on the processing

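Of 40 called differences, 21 kept their direction and call under all alternatives run for them, and over 30 alternatives 103 of 1198 values lost the call and 0 changed direction. Leaving out duodenum 2 and jejunum 1 together was chosen after seeing the data. The count of members higher in the stomach was 3 with the scan day as block, when the count over all genes fell from 5281 to 2511. With the stomach flags left out of the filter it was 5, with 4396 over all genes. With normexp 5 members were higher and 13 lower in the stomach, beside 4257 and 4505 of all genes (5281 and 3933 in the main fit). Quantile normalization also gave 5 and 13, beside 5234 and 4592 of all genes. The median of all genes for the stomach moved from 0.29 to -0.06 with normexp, and for the colon from 0.00 to 0.33, where 9 members were then higher and 6 lower, beside 6073 and 3029 of all genes. Between duodenum and jejunum 1 member was lower with normexp, without the dye term or with the scan day as block. Over all genes 115, 196 and 156 were lower in these fits (95 in the main fit). Without duodenum 2 and jejunum 1, 1 member was higher, beside 82 of all genes (85 in the main fit). In the ileum against the jejunum, 0 members were higher with the scan day as block, beside 211 of all genes. With only both segments in the fit, 0 were higher and 0 lower, beside 92 and 124 of all genes. Without duodenum 2 and jejunum 1, 2 were higher, beside 290 of all genes. The main fit called 491 of all genes higher and 934 lower there. Lower members in the colon numbered 11 without the slide block and 3 with colon 1 and 2 averaged, while all genes lower went from 4475 to 6824 and 3771. Against the ileum, the colon had 5 higher and 7 lower without duodenum 2 and jejunum 1, beside 3896 and 4140 of all genes (2610 and 2621 with all samples). The causes of these changes were not tested. Fits that leave samples out also have fewer samples, and the part of that was not tested either.

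When single samples were left out, the F test called 19 to 27 members. In the stomach 4 to 9 were higher and 9 to 12 lower, and between duodenum and jejunum 0 to 1 and 0 to 2. In the ileum these counts were 0 to 2 and 1 to 4, in the colon 3 to 7 and 2 to 8, and in the colon against the ileum 3 to 5 and 2 to 5. Over all genes the same fits called 2938 to 5956 higher and 2854 to 4510 lower in the stomach. Between duodenum and jejunum they called 18 to 534 and 10 to 666, and in the ileum 148 to 1711 and 303 to 1891. For the colon the counts were 2679 to 4680 and 3282 to 4945, and against the ileum 1487 to 3140 and 1561 to 2882.

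The replicate numbers shared by the segments are not said to pair samples, and the main fit left them unpaired. Of 30 same-numbered pairs 6 had a correlation of deviations over 0.1 (-0.421 to 0.293). Duodenal and jejunal samples of other numbers on a shared slide gave 0.491 to 0.553. Stomach 2 and duodenum 3, of other numbers and on different slides, also gave 0.504. High correlations thus arose with and without a shared slide, and they cannot tell whether the numbers pair samples. With the replicate block the F test called 27 members. In the ileum against the jejunum 0 were higher, beside 321 of all genes (491 in the main fit). In the colon 10 were lower and 7 higher, beside 6046 and 6688 of all genes (4475 and 4223 in the main fit). Abcb1b then gave 1.35 (adjusted p = 0.0547) and Abcd3 -1.20 (adjusted p = 0.074) in the ileum against the jejunum.

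Dim members were limited by signal: the lowest level of any probe flagged well above background was -1.78 in ileum 1 and -5.99 in stomach 2.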
